A study of Mus musculus with 4 samples.

Results

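Transcripts of 37 cytokine receptor genes were read across 4 sorted populations of CD4+ T cells, 1 Affymetrix Mouse Genome 430 2.0 array for each. The set holds receptor chains for interleukins, interferons and related cytokines, those of the IL-2 receptor left out, and its members were listed by name and matched through the platform annotation to probe sets with exactly 1 gene. Of the 37 genes, 35 had such a probe set, 72 probe sets in all, and 25 reached the intensity filter that left 9625 genes measured out of 18193. All cells came from lymph nodes and spleens of B6/129 F2 mice, 25 males aged 5 to 8 weeks with green fluorescent protein (GFP) knocked into Foxp3, so every population carries the knock-in allele. Cells bearing CD8, B220, CD11b, NK1.1 or DX5 were removed, and CD4+ cells were sorted by CD25 and by GFP, which reports Foxp3. The Foxp3+ cells were split into CD25hi Foxp3+ and CD25lo Foxp3+, and the others into CD25+ Foxp3- and CD25- Foxp3-. The labels name no treatment, cells of the 25 animals were pooled, and with 1 array a group the differences were judged by size alone and carry no test.

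Cytokine receptors are assembled from chains that bind the ligand and chains that carry the signal. Type I receptors (for most interleukins) and type II receptors (for interferons and IL-10) signal through JAK kinases and STAT factors. Receptors of the IL-1 and IL-18 family instead recruit the adaptor MyD88 through an intracellular TIR domain, and those of the IL-17 family recruit Act1. Foxp3+ regulatory T (Treg) cells are known for high CD25 and low IL-7 receptor on their surface, and helper subsets are told apart in part by which of these receptors they bear.

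Values are intensities in the deposited linear unit, given for a gene from the probe set with the highest mean log2 intensity and with the Foxp3+ arrays first (CD25hi, then CD25lo), followed by the Foxp3- arrays (CD25+, then CD25-). Readings under 10.1 were treated as background (the floor), and a probe set had to reach 32.5 in at least 1 array (the filter). The array medians lay between 15.03 and 15.63, so the columns share a scale. Intensities of different genes come from different probes and are not set against each other. The labelled cell type was borne out by its markers, as Cd4 read 2455, 2740, 2434 and 2948 and all 7 listed CD4 T cell markers were above the floor in every array. Their summed intensity was 28270, 32250, 24580 and 34320, lowest in CD25+ Foxp3- cells. Foxp3 read 1308 and 1117 where GFP was present, against 16.8 and 17.6 where it was absent. In these bulk populations fewer cells of a type and less RNA per cell cannot be told apart.

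The plainest pattern lay in CD25+ Foxp3- cells. There 5 receptor genes, Il1r1, Il17re, Il17rb, Il18rap and Il18r1, read at least 2-fold above every other array, and 2 interferon receptor genes, Ifngr1 and Ifnar1, read at least 2-fold below every other array. Il18r1 passed narrowly, and after quantile normalization its difference from CD25- Foxp3- cells was 0.94 on the log2 scale, which left 4 genes above. A rule of this kind was met by 3.26% of all measured genes upward and by 0.519% downward, and it was chosen after the values were seen. The stretch of 250 bases before the annotated start is shown for the 4 of these 7 genes whose window lies wholly before the gene, to let the reader see what lies upstream of genes that stood apart in the same array. Sequences are from RefSeq, mouse build GRCm38.p6, written 5′ to 3′ along the gene's strand, and capitals mark each CG dinucleotide.
Il18r1 (chr1:40465302-40465551, plus strand): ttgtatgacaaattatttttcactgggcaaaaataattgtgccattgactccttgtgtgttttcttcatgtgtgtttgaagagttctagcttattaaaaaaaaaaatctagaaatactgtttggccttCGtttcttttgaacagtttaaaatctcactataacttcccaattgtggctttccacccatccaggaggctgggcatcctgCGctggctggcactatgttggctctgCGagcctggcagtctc
Il18rap (chr1:40515112-40515361, plus strand): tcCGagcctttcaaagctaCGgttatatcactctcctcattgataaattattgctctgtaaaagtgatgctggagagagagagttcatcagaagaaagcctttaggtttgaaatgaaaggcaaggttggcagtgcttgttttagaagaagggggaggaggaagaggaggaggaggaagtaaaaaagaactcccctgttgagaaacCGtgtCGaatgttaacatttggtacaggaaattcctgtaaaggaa
Il17rb (chr14:30008897-30009146, minus strand): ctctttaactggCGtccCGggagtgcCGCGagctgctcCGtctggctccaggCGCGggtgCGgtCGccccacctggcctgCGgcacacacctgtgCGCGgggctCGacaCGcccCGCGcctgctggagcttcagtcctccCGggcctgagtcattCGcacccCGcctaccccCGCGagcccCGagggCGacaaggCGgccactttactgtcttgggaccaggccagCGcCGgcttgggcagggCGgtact
Ifngr1 (chr10:19591699-19591948, plus strand): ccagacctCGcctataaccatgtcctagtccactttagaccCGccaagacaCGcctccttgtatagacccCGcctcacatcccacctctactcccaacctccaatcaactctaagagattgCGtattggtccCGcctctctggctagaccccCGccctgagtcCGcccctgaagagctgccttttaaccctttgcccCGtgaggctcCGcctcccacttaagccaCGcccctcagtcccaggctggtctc

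The upstream windows were unlike each other in composition. Il18r1 had 3 CG dinucleotides and 40.8% G and C, Il18rap had 4 and 42.0%, Il17rb had 27 and 72.0%, and Ifngr1 had 11 and 59.2%. Among all 32851 promoter windows of that length the median was 6, and 8.56% held as many CG dinucleotides as Il17rb. Of the 3 windows not printed, Il1r1 held 3, Il17re 2 and Ifnar1 19. A search of both strands for TTCNNNGAA (the STAT motif), AGGTCA (ROR), AGATAA (for GATA factors), TGTTTAC (forkhead) and TGTGGT (RUNX) found none of them in any of the 7 windows. Those letters are held by 7.02%, 14%, 9.99%, 3.17% and 14% of all windows in the order given. Promoter windows were matched for 30 of the 37 genes, 18 of them measured. Among those 18, the STAT letters were found for Il1r2, Il7r and Ifnar2.

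In the IL-1 family the signalling and decoy receptors for IL-1 differed between the arrays in different ways. Il1r1, the signalling receptor for IL-1, read 42.1, 40.1, 334.5 and 36.2. It was high in CD25+ Foxp3- cells alone, 7.94-fold over the next array, and the other 3 arrays lay within 1.16-fold of each other, just above the filter. Il1r2, a decoy that binds IL-1 but has no TIR domain to signal, read 478.5, 438.7, 322.5 and 24.6. It was low in CD25- Foxp3- cells alone, where its reading was under the filter, and was 19.5-fold, 17.9-fold and 13.1-fold higher in the other arrays in the order above. CD25+ Foxp3- cells were thus the population in which both IL-1 receptors read high.

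Il1rap, the accessory chain that IL-1 and IL-33 receptors share, gave no settled order. Its main probe set read 103, 86.5, 66.3 and 119, lowest in CD25+ Foxp3- cells, while another probe set read 29.6, 39.5, 48.9 and 21.2, highest there. Sigirr, an immunoglobulin-domain receptor that restrains IL-1 and Toll-like receptor signals, read 1137, 1209, 591 and 738. Both Foxp3+ arrays lay above both Foxp3- arrays, with a gap of 1.54-fold between the nearest readings. Il1rl2, the receptor for IL-36, read 18.3, 16.8, 67.8 and 66.4, under the filter in both Foxp3+ arrays. That gap of 3.62-fold was the widest by Foxp3 among the receptor genes, but it rests on 1 of the gene's 2 probe sets, since the other read under 10.1 in all arrays.

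Both chains of the IL-18 receptor were highest in CD25+ Foxp3- cells. Il18r1, the chain that binds IL-18, read 989.5, 1152, 2455 and 1194, and its lead over the next array was 2.06-fold. Il18rap, the signalling partner, read 40.2, 118.5, 248 and 84.1, so it differed between the Foxp3+ populations as well, 2.95-fold higher in CD25lo than in CD25hi cells. A further Il18rap probe set read 12.3, 34.4, 85.1 and 19.5 and gave the same order for the highest and the lowest array. The gene for the IL-33 receptor, Il1rl1, had no probe set assigned to it alone and was not analysed here. In the RefSeq gene table (GRCm38.p6) Il1r2, Il1r1, Il1rl2, Il1rl1, Il18r1 and Il18rap follow each other on chromosome 1 with no other protein-coding gene between them. Of the 5 neighbours that were measured, Il1r1, Il18r1 and Il18rap passed 2-fold above all other arrays in CD25+ Foxp3- cells, and Il1r2 and Il1rl2 did not.

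**Figure D1:**
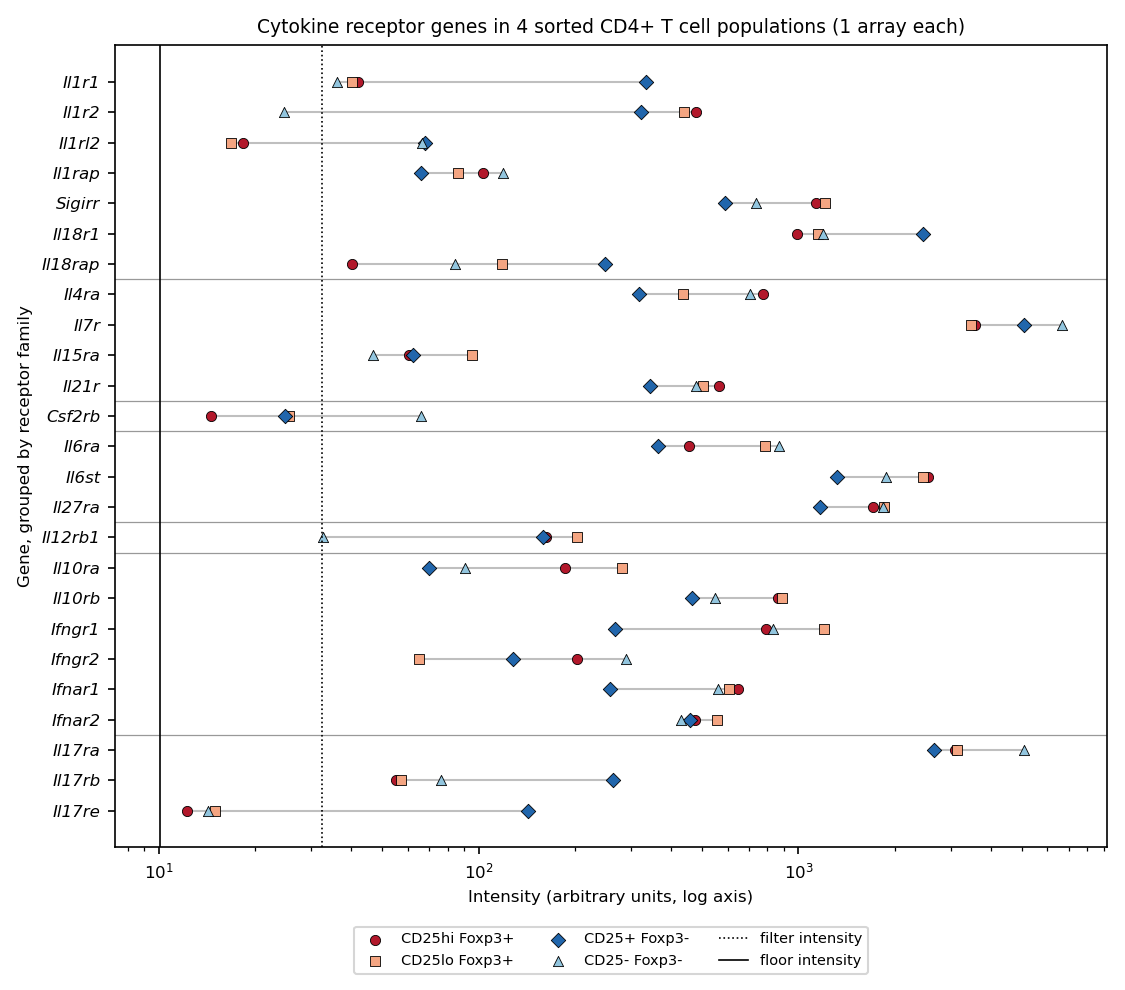
Intensity (log axis, arbitrary units) of each of the 25 measured receptor genes in the 4 arrays, 1 point per array, grouped by family. The solid line marks the floor of 10.1 and the dotted line the filter of 32.5. The blue diamonds of CD25+ Foxp3- cells stand far to the right for Il1r1 (334.5), Il17rb (263) and Il17re (143) and to the left for Ifngr1 (266.5) and Ifnar1 (258).

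Receptors of the IL-17 family split in the same array. Il17re, which pairs with Il17ra to bind IL-17C, read 12.3, 15.02, 143 and 14.3, high in CD25+ Foxp3- cells and close to the floor in the others. It was 9.53-fold above the next array, a size that is uncertain because the low readings are near background. Another Il17re probe set read 11.8, 11.4, 35.2 and 11.7, a smaller difference in the same array. Il17rb, the receptor for IL-25, read 55.3, 57.3, 263 and 76.1, again highest in CD25+ Foxp3- cells, by 3.45-fold over the next array.

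The shared chain Il17ra, which takes part in signalling by IL-17A and IL-25, did not follow them. It read 3085, 3132, 2655 and 5086, highest in CD25- Foxp3- cells by 1.62-fold and lowest in CD25+ Foxp3- cells. The other chains, Il17rc, the partner for IL-17A and IL-17F, and Il17rd, read between 3.44 and 8.53 in all arrays, under the floor. Il17rc is the next protein-coding gene to Il17re on chromosome 6.

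Some markers of other cell types were high in CD25+ Foxp3- cells, while the sums of some marker lists were highest in other arrays. Kit, on the lists for innate lymphoid and for mast cells, read 10.7, 9.92, 399 and 11.7, and Zbtb16, the PLZF factor of NKT and innate cells, read 4.45, 6.26, 82.2 and 17.1. Of the 12 listed markers of innate lymphoid cells 8 had a probe set, with summed intensities of 6014, 8171, 6772 and 7384, carried mostly by Il7r, Rora, Gata3 and Klrg1, which T cells also express. For NKT and gamma delta T cells 3 of 6 listed markers had a probe set, and they summed to 22.3, 31.8, 136.6 and 45.8, with Sox13 at the floor throughout. The 10 markers of mast cells and basophils summed to 87.2, 124, 517 and 174, and the high sum rested on Kit. The other 9 summed to 76.5, 114, 118 and 162, highest in CD25- Foxp3- cells, and Fcer1a, Mcpt4 and Cma1 were at the floor in CD25+ Foxp3- cells.

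All 14 listed markers of CD8 T and NK cells had a probe set, and they summed to 907, 1508, 3133 and 3478. Of the 13 that reached the filter, Eomes, Gzmk, Ncr1 and Xcl1 were at least 2-fold above every other array in CD25+ Foxp3- cells. That is 30.8% of the 13, where 3.26% of all measured genes were. Eomes, a factor of cytotoxic lymphocytes, read 50.01, 35.8, 411 and 106, and Gzmk, a granzyme, read 7.95, 60.6, 416 and 139. Gzma, Klrd1 and Prf1 stood 2-fold above the others in CD25- Foxp3- cells instead, 23.1% of the 13, where 1.54% of all measured genes were. Klra7 was at the floor in CD25+ Foxp3- cells. For B cells 11 of 12 markers had a probe set, with sums of 647, 1443, 3636 and 2369, highest in CD25+ Foxp3- cells. The largest part there was H2-Aa, a class II gene of antigen-presenting cells, at 132, 375, 1877 and 1098. H2-Eb1 followed, at 98.5, 220, 854 and 490, then H2-Ab1, at 48.3, 129, 548 and 352. Of the 9 listed B cell markers at the filter, 5 were highest in CD25+ Foxp3- cells, namely H2-Aa, H2-Eb1, H2-Ab1, Cd22 and Blk. Fcmr, at 199, 479, 40.3 and 65.0, and Cd79b, at 97.2, 118, 58.4 and 69.2, were lowest there. Ms4a1, at 15.9, 24.7, 66.7 and 145, and Ly86, at 18.8, 27.2, 49.0 and 82.5, were highest in CD25- Foxp3- cells. The B cell genes Cd79a and Pax5 were at the floor in CD25+ Foxp3- cells. Among myeloid markers Fcer1g, an Fc receptor chain that NK and mast cells share, read 15.5, 21.9, 294.5 and 21.5. The part of these cell types in the receptor readings was not tested.

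For 1 chain of each interferon receptor pair, CD25+ Foxp3- cells read at least 2-fold below every other array on the main probe set. Ifngr1, the chain that binds interferon gamma, read 792, 1203, 266.5 and 834. It was low in CD25+ Foxp3- cells alone, 2.97-fold under the next array. Ifngr2, the signalling partner, read 202.5, 65.03, 128 and 288, and its lowest array was CD25lo Foxp3+ instead. There it was 3.11-fold lower than in CD25hi Foxp3+ and 4.43-fold lower than in CD25- Foxp3- cells. In CD25+ Foxp3- cells Ifngr2 was 2.25-fold lower than in CD25- Foxp3- cells as well. In CD25lo Foxp3+ cells the 2 chains thus stood apart, with Ifngr1 at its highest reading of the 4 arrays and Ifngr2 at its lowest.

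For the type I interferon receptor, Ifnar1 read 648, 606, 258 and 559, lowest in CD25+ Foxp3- cells by 2.16-fold. A second Ifnar1 probe set read 399, 263, 140.1 and 299.6 and placed the same array lowest. Ifnar2, its partner and the main ligand-binding chain, read 474, 556.5, 459 and 428 on its main probe set, within 1.30-fold across the arrays. Another Ifnar2 probe set read 501, 536, 314 and 474, lowest in CD25+ Foxp3- cells by 1.51-fold, and the remaining one at the filter read 104, 116, 86.8 and 76.98, lowest in CD25- Foxp3- cells. Whether Ifnar2 was lower in CD25+ Foxp3- cells thus depends on the probe set. The T cell markers Cd3e and Cd3d, at 837, 806, 497 and 807.5 and at 9007, 9946, 6179 and 9886, were lowest in CD25+ Foxp3- cells as well. So were Cd3g, Cd5 and, by a small margin, Cd4. The other listed CD4 T cell markers were lowest in CD25hi Foxp3+ cells instead. Cd28 read 2596, 3602, 3300 and 3108, and Thy1 read 3531, 3724, 5308 and 8067. The differences of Cd3e and Cd3d in CD25+ Foxp3- cells were smaller than the 2-fold used for receptor genes. The part of these markers in the interferon receptor values was not tested.

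The IL-10 receptor read higher in both Foxp3+ populations, by the 1.5-fold rule for Il10ra and for Il10rb on its main probe set. Il10ra, which binds IL-10, read 186 and 281 against 69.98 and 90.9, and the arrays did not overlap by Foxp3, with a gap of 2.05-fold. Il10rb, the signalling chain that it shares with IL-22 and lambda interferon receptors, read 863 and 885 against 464.5 and 549, a gap of 1.57-fold. A second Il10rb probe set read 87.5 and 75.5 against 49.3 and 72.5, in the same direction but with a gap of 1.04-fold that did not reach the rule. Ifnar2, Il10rb, Ifnar1 and Ifngr2 are consecutive protein-coding genes on chromosome 16, and on their main probe sets each of the 4 gave a different order of the arrays. Il10 itself read 207, 395, 44.1 and 8.55, highest in CD25lo Foxp3+ cells, as was Il10ra.

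**Figure D2:**
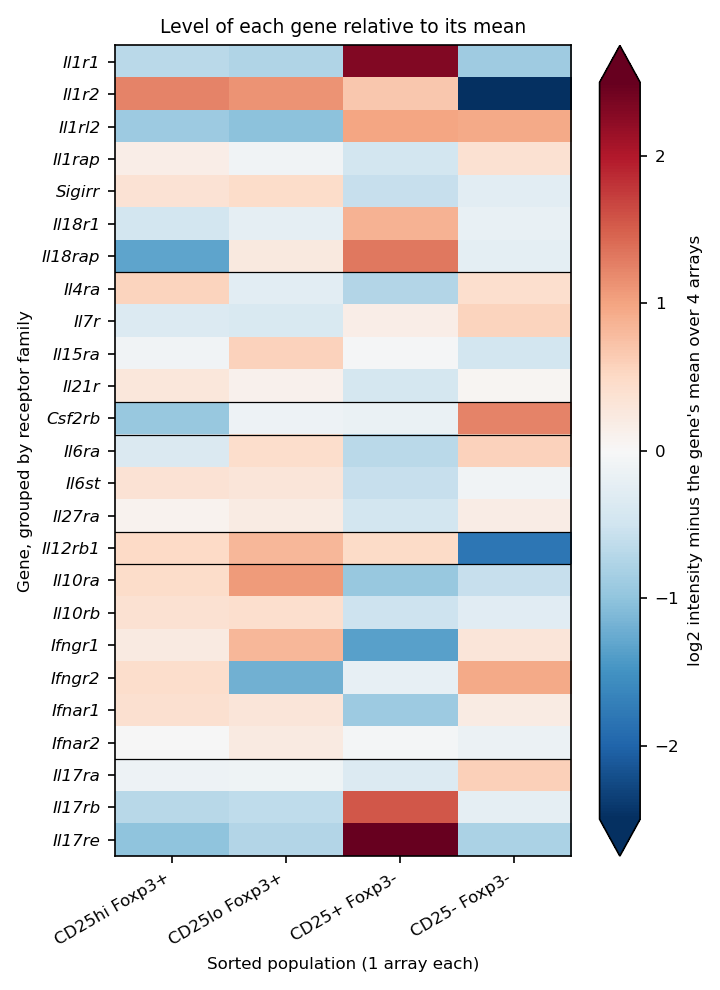
Log2 intensity of each measured receptor gene minus its own mean over the 4 arrays (colour, red above and blue below), with genes grouped by family and 1 column per array. Il10ra, Il10rb and Sigirr are red in both Foxp3+ columns and blue in both Foxp3- columns. Il1r2 and Il12rb1 are darkest blue in CD25- Foxp3- cells.

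In the common gamma family the median absolute log2 difference between CD25+ and CD25- Foxp3- cells was 0.45 over 4 measured chains, against 1.04 over all 25 receptor genes. Il7r, the IL-7 receptor alpha chain (CD127), read 3565, 3465, 5075 and 6659. The Foxp3+ arrays lay below both Foxp3- arrays, with a gap of 1.42-fold that did not reach the 1.5-fold rule. A second Il7r probe set read 746 and 659 against 1236 and 1653 and kept the same split, with a gap of 1.66-fold. Il4ra, the chain for IL-4 and IL-13, read 773, 436, 317 and 704 on its main probe set, high in CD25hi Foxp3+ and CD25- Foxp3- cells and lower in the other 2 arrays. A second probe set at the filter read 106, 80.1, 44.0 and 56.01, with CD25- Foxp3- cells below CD25lo Foxp3+ cells. Both placed CD25hi Foxp3+ cells highest and CD25+ Foxp3- cells lowest.

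Il21r, the IL-21 receptor, read 564, 503, 344 and 480, lowest in CD25+ Foxp3- cells, which had the highest Il21 reading. Il15ra, which presents IL-15 to neighbouring cells, read 60.6, 95.3, 62.6 and 46.9, highest in CD25lo Foxp3+ cells by 1.52-fold. The IL-9 receptor gene Il9r and Il13ra1, a chain for IL-13, read between 4.85 and 12.2 over all their probe sets and did not reach the filter. Of the IL-2 receptor chains that share this system, Il2ra read 1562, 288, 283 and 22.3 and Il2rb read 1053, 459, 257.5 and 68.5. The common gamma chain gene itself was not analysed here.

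Receptors that signal through gp130 had moderate differences. Il6ra, which binds IL-6, read 454, 785, 365 and 866. It alone among the receptor genes passed the 1.5-fold rule when CD25hi Foxp3+ and CD25+ Foxp3- cells were set against the other 2 arrays. These have the higher CD25 label within their own Foxp3 group, and both were below both others, with a gap of 1.73-fold. Il2ra, which encodes CD25, did not separate in this pairing, at 288 in CD25lo Foxp3+ and 283 in CD25+ Foxp3- cells. Il6st, which encodes gp130, read 2539, 2456, 1324 and 1878 on its main probe set, lowest in CD25+ Foxp3- cells. Its other probe sets gave other orders, for example 485, 438.5, 295 and 762 with the highest reading in CD25- Foxp3- cells. Il27ra, the receptor chain for IL-27, read 1706, 1851, 1169 and 1839, lowest in CD25+ Foxp3- cells by 1.46-fold. Lifr and Osmr, the receptors for leukaemia inhibitory factor and oncostatin M, did not reach the filter, with highest readings of 25.2 and 8.40, and Il11ra1 had no probe set assigned to it alone and was not analysed here.

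Il12rb1, the chain shared by the IL-12 and IL-23 receptors, read 163, 203.5, 159.5 and 32.6. It was low in CD25- Foxp3- cells alone, 4.89-fold under the next array, while the other 3 arrays lay within 1.28-fold. Il12rb2, the partner that makes the IL-12 receptor and marks Th1 cells, read between 4.90 and 5.58, under the floor in every array. The readings of Il12rb1 and Il1r2 were therefore the pair at least 2-fold below every other array in CD25- Foxp3- cells, against 3.51% of all measured genes.

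Csf2rb, the common beta chain of the IL-3, IL-5 and GM-CSF receptors, read 14.6, 25.5, 24.8 and 66.1. Only the CD25- Foxp3- reading reached the filter, and it was at least 2-fold above the others, which 1.54% of measured genes were. The alpha chains of those receptors, Il3ra, Il5ra and Csf2ra, stayed under the filter with highest readings of 26.9 for Il3ra and Csf2ra and a reading under the floor for Il5ra. A probe set shared by Csf2rb and Csf2rb2 was left out, as it names more than 1 gene. Myeloid and dendritic cell markers, for which Csf2rb is also known, had 16 of 16 genes with a probe set and summed to 7557, 7410, 5882 and 6803. Nearly all of that sum was Ctss, a lysosomal protease, at 7294, 6864, 5008 and 5889. The other 15 summed to 263, 546, 874 and 914, highest in CD25- Foxp3- cells and close to that in CD25+ Foxp3- cells, with Cd14, Itgam, Siglech and Cd209a at the floor in all arrays. CD25- Foxp3- cells, where Csf2rb was highest, had the highest reading for 30.7% of all measured genes. Of the 9 myeloid markers that reached the filter, 5 were highest in that array. Those were Lyz2, the lysozyme of myeloid cells, at 27.8, 113, 70.6 and 147, and Csf1r, S100a8, S100a9 and Cd68. Tyrobp, Fcer1g and Adgre1 were highest in CD25+ Foxp3- cells, and Ctss in CD25hi Foxp3+ cells. Cpa3, a mast cell and basophil protease, read 7.40, 15.6, 15.8 and 56.02, highest in the same array as Csf2rb. Kit, the only other listed mast cell marker at the filter, was highest in CD25+ Foxp3- cells. The part of these markers in the Csf2rb reading was not tested.

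**Figure D3:**
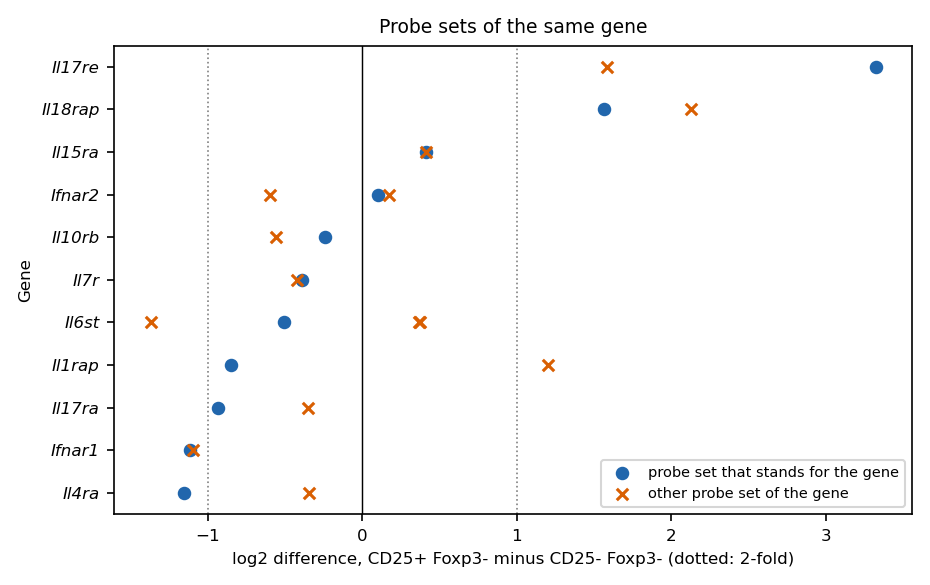
Log2 difference between CD25+ Foxp3- and CD25- Foxp3- cells for each probe set of the 11 receptor genes that had at least 2 probe sets at the filter. Circles are the probe sets that stand for the gene and crosses are the others, and dotted lines mark 2-fold. For Il17re, Il18rap and Ifnar1 every probe set lies past 2-fold on 1 side, while for Il1rap and Il6st the probe sets lie on both sides of 0.

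Other probe sets of the same gene gave a check on direction for differences called from the main probe set. The 11 genes with at least 2 probe sets at the filter gave 14 cases where the main probe set passed 2-fold between 2 arrays. In all 14 the other probe set had the same direction, and in 10 of them it passed 2-fold too. These cases came from 5 genes, Il18rap, Il4ra, Il15ra, Ifnar1 and Il17re. Where the main probe set was under 2-fold, as for Il1rap and Il6st above, directions could differ, even where another probe set passed 2-fold. Between CD25+ and CD25- Foxp3- cells Il1rap had a log2 difference of -0.85 on its main probe set and 1.21 on another. For Il6st the main probe set gave -0.50, while others gave -1.37 and 0.375. Il1r1, Il1r2, Il17rb, Il18r1, Il12rb1 and Ifngr1 each rest on 1 probe set at the filter.

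Over the 25 measured genes, counts by comparison put most differences with the CD25+ Foxp3- array. Some of these 25 passed the filter only through the array where they are high: Il1r2, Il1rl2, Csf2rb and Il17re. The counts are therefore a description, and shares of all 35 genes with a probe set are given beside some of them. Without the filter, the genes at least 2-fold above every other array in CD25+ Foxp3- cells were 14.3% of the 35, against 1.91% of all 18193. Those below were 5.71%, against 0.28%. For CD25- Foxp3- cells, Csf2rb above was 2.86% of the 35, against 0.841%. Il12rb1 and Il1r2 below were 5.71%, against 1.87%. Against CD25- Foxp3- cells, CD25+ Foxp3- cells had 7 receptor genes at least 2-fold higher, where 12.1% of all measured genes were, and 6 lower, where 6.43% were. Without the filter the counts were 7 and 6 of the 35 genes, against 6.72% and 3.51% of all 18193. The higher genes were Il1r1, Il1r2, Il18r1, Il18rap, Il12rb1, Il17rb and Il17re, and the lower ones were Ifnar1, Ifngr1, Ifngr2, Il4ra, Il6ra and Csf2rb.

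CD25hi Foxp3+ cells had 3 receptor genes higher than CD25- Foxp3- cells (Il10ra, Il12rb1 and Il1r2) and 3 lower (Csf2rb, Il18rap and Il1rl2), where 7.09% and 3.74% of all measured genes were. CD25lo Foxp3+ cells had 4 higher (Il10ra, Il12rb1, Il15ra and Il1r2) and 3 lower (Csf2rb, Ifngr2 and Il1rl2), where 9.10% and 6.88% were. Without the filter the same receptor genes passed in both. The shares of all 18193 genes were then 3.94% and 2.14% for CD25hi and 5.03% and 3.88% for CD25lo Foxp3+ cells. The 3 comparisons with CD25- Foxp3- cells share that array. Between the Foxp3+ populations Ifngr2 alone was at least 2-fold higher in CD25hi cells and Il18rap alone lower, 1 gene in each direction of 25, against 3.21% and 2.51% of all measured genes. That is near the background share.

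Against CD25+ Foxp3- cells, CD25hi Foxp3+ cells had 4 receptor genes higher (Ifnar1, Ifngr1, Il10ra and Il4ra) and 6 lower, with backgrounds of 4.82% and 6.84%. CD25lo Foxp3+ cells had 5 higher (Ifnar1, Ifngr1, Il10ra, Il6ra and Sigirr) and 6 lower, with backgrounds of 5.17% and 9.04%. The 6 lower genes were the same in both, namely Il1r1, Il1rl2, Il18r1, Il18rap, Il17rb and Il17re, and these comparisons share the CD25+ Foxp3- array. The median log2 difference over the 25 genes was 0.31 for CD25hi and 0.38 for CD25lo Foxp3+ cells against CD25+ Foxp3- cells, where all measured genes had 0.03 and -0.01. It was -0.38 for CD25+ against CD25- Foxp3- cells, with -0.01 over all genes. Over all 35 genes with a probe set these medians were 0.03, 0.12 and 0.0. In 12 of the 25 genes CD25+ Foxp3- cells had the lowest reading, 48.0%, against 30.6% of all measured genes.

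**Figure D4:**
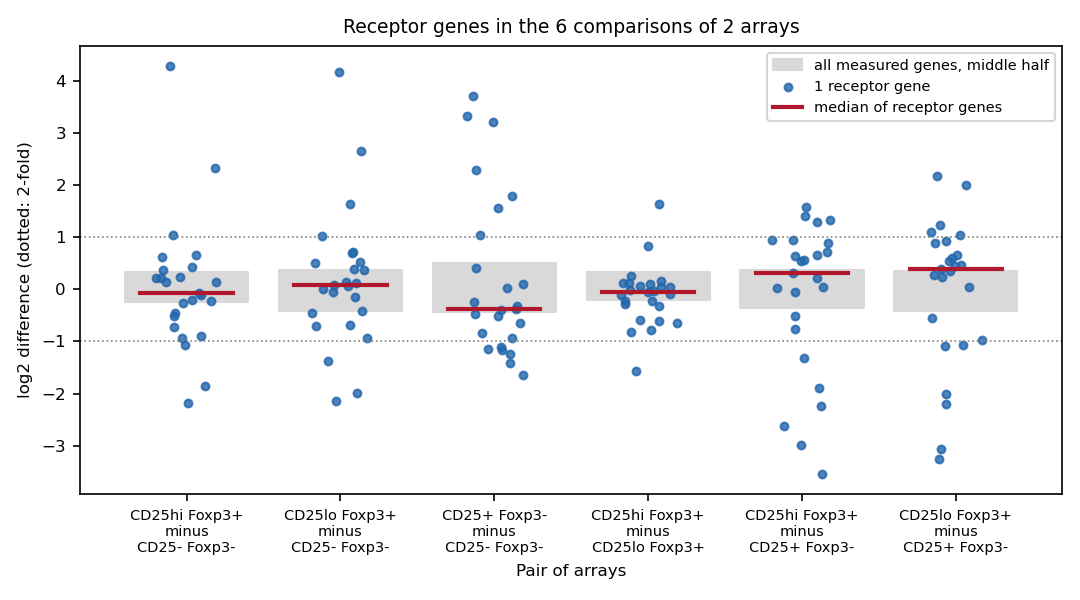
Log2 difference of each measured receptor gene (points, 25 per column) in the 6 comparisons of 2 arrays, with the median of the receptor genes as a red line and the interquartile range of all 9625 measured genes as a grey box. Dotted lines mark 2-fold. The points spread widest in the 3 columns that hold CD25+ Foxp3- cells and in the Il1r2 and Il12rb1 points of the first 2 columns, and lie closest together between the Foxp3+ populations.

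When the 4 arrays were paired, a gene counted if all readings of 1 pair lay 1.5-fold or more above all of the other pair. By Foxp3, 3 receptor genes were higher (Il10ra, Il10rb and Sigirr), where 2.79% of all measured genes were, and Il1rl2 was lower, where 1.93% were. With the median over a gene's probe sets at the filter, Il10rb fell to a gap of 1.30-fold and left the rule, and Il7r, lower in Foxp3+ cells, joined it at 1.54-fold. With the higher CD25 label of each Foxp3 group (CD25hi Foxp3+ and CD25+ Foxp3-) against the other 2, no receptor gene was higher, where 1.10% of all were. Il6ra was lower, where 0.187% were. The third pairing, CD25hi Foxp3+ with CD25- Foxp3- cells against the other 2, follows neither marker and held Ifngr2 and Il4ra higher, where 1.45% were, and none lower, where 1.60% were. Over the median of the probe sets Il4ra left this pairing, at 1.06-fold, and Il18rap joined the lower genes. Just outside the rule by Foxp3 were Il7r, with a gap of 1.42-fold, and Il1r2, with 1.36-fold.

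Ligands and signalling genes of these receptors were read from lists of their own. Of 41 ligand genes 33 had a probe set and 11 were measured, and 7 of the 11 passed 2-fold upward from CD25- to CD25+ Foxp3- cells (Ebi3, Ifng, Il10, Il17a, Il21, Il4 and Lif) and none was lower, where 12.1% and 6.43% of all measured genes were. Il17a reached the filter only in CD25+ Foxp3- cells. Without the filter 8 of the 33 ligand genes were higher, Csf2 being added, and none lower, where 6.72% and 3.51% of all 18193 genes were. Ifng, the ligand of Ifngr1, read 140, 366, 1146 and 288.5, highest in the array where Ifngr1 was lowest. Il21 read 15.3, 59.8, 1794 and 122, highest in the array where Il21r was lowest. Il4 read 11.2, 10.8, 145 and 71.95, highest in the array where its receptor chain Il4ra was lowest. CD25+ Foxp3- cells had the lowest reading for 12 of the 25 receptor genes, and Il10 and Il10ra were both highest in CD25lo Foxp3+ cells. A relation between ligand and receptor readings was not tested. Lif read 27.3, 33.7, 90.4 and 15.2 and Il17a 6.30, 7.88, 49.6 and 11.8, both highest in CD25+ Foxp3- cells, while their receptor chains Lifr and Il17rc were under the filter. Ebi3, a subunit of IL-27 and IL-35, read 233, 239, 250.5 and 41.6, and Il18, the ligand of Il18r1, read 24.1, 66.1, 34.4 and 19.2.

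Few signalling genes passed 2-fold, but most read lower in CD25+ than in CD25- Foxp3- cells. There the median log2 difference over the 20 measured was -0.44, with 17 lower, where all measured genes had -0.01. The median absolute difference was 0.48, close to the 0.46 of all measured genes. All 20 with a probe set were measured, of 23 listed. Between CD25+ and CD25- Foxp3- cells none was at least 2-fold higher, where 12.1% of all measured genes were. Only 1 was lower, the adaptor Irs2 at 17.9 against 37.9. That is 5.0% of the list, where 6.43% of all measured genes were lower. The widest range over the 4 arrays was 2.18-fold, for Irak2, a kinase downstream of MyD88, at 84.1, 72.8, 46.6 and 38.5. Irak2 was also the only one of the 20 to pass the 1.5-fold rule by Foxp3, higher in both Foxp3+ arrays. By that rule 2.79% of all measured genes were higher. Ptpn11, the phosphatase SHP-2, read 2093, 2478, 4221 and 2824, highest in CD25+ Foxp3- cells. Stat3, which acts downstream of IL-6, IL-10 and IL-21, read 1911, 1371, 1012 and 1585, and Irf9, part of the type I interferon signal, read 814, 824, 499.7 and 875, both lowest there. Traf3ip2, which encodes the IL-17 receptor adaptor Act1, read 531, 656, 511 and 1000.0, highest in CD25- Foxp3- cells as Il17ra was. Irak3, an inhibitor of the MyD88 pathway, read 23.5 and 20.5 in the Foxp3+ arrays and somewhat more in the Foxp3- arrays, close to the filter throughout.

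Among 23 further cytokine receptor genes, 18 had a probe set and 5 were measured. Apart from Il2ra and Il2rb these were Csf1r, Crlf2 and Crlf3. Crlf2, the receptor for TSLP that pairs with Il7r, read 410, 575.5, 327 and 317, highest in CD25lo Foxp3+ cells. Csf1r, the receptor of macrophage colony-stimulating factor and a myeloid marker, read 57.8, 212, 147 and 305, highest in the array with the highest Csf2rb reading. Crlf3 read 4292, 5448, 2923 and 5102. The soluble antagonist gene Il18bp, which neutralises IL-18, read 29.0, 20.02, 26.5 and 37.4, close to the filter.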

How the data were processed

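RNA was amplified in 2 rounds and hybridised, per the labels, to Affymetrix Mouse Genome 430 2.0 arrays. Each deposited value is a linear intensity for a probe set. Their summarisation, background correction and normalization are not given in the sources used here, and amplification can distort the levels of weakly expressed genes. Column medians differed by less than 10%, so the deposited scale was kept. Groups were taken from the sample titles, 1 array each, and the number of arrays limits the precision.

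Genes were assigned to probe sets through the platform's annotation: 64 controls were left out, 34945 had 1 gene, 932 several and 9160 none listed. All 72 receptor probe sets matched their symbol in RefSeq (GRCm38.p6) by Entrez identifier. Intensities under the 40th percentile were set to it and a probe set had to reach the 60th percentile in 1 array, before conversion to log2. A gene was counted at 2-fold between 2 arrays or at a 1.5-fold gap between pairs of arrays. The code of both counting rules was checked on simulated data with known differences far above the cutoffs and a noise level set by choice. That check does not show how reliable the calls on these arrays are. The text names all receptor genes and up to 8 genes per pathway list with the widest range, and others where a count is small. The members and lists were chosen with earlier results of these data known. Python 3.11.15 with pandas 2.3.3 and numpy 2.4.6 was used, and 5 alternative settings were tried.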

Additional observations from a re-analysis of the deposited data

Results flagged for a closer look

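For 3 receptor genes the CD25 difference on the main probe set ran in opposite directions in Foxp3+ and in Foxp3- cells, by at least 1.5-fold in each. The share of all measured genes that met this rule was not computed, so the count has no background and the genes are only described. The difference between the contrasts was not tested, since each rests on 2 arrays. Il18rap was lower in CD25hi than in CD25lo Foxp3+ cells, with a log2 difference of -1.56, and among Foxp3- cells higher in the CD25+ array, with 1.56, so the contrasts differed by -3.12. Ifngr2 had log2 differences of 1.64 and -1.17 in the same contrasts, 2.81 apart. Il4ra had 0.83 and -1.15, 1.98 apart, on its main probe set. On the second Il4ra probe set the differences were 0.41 and -0.35, opposite as well but each under 1.5-fold. The second Il18rap probe set gave -1.48 and 2.13, and Ifngr2 rests on 1 probe set at the filter. Ifnar1 met the rule on its second probe set, with 0.60 and -1.10, but not on its main one, with 0.10 and -1.11.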

How the results depend on the processing

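The counts of receptor genes past the rule in the 9 comparisons stayed within 1.5-fold of the values above under each of the 5 alternatives: a floor at the 20th percentile, no filter, a filter at the 70th percentile, the median over a gene's probe sets, and quantile normalization. The genes behind a count could change: with the median over probe sets Il10rb left and Il7r joined the Foxp3 pairing, and Il4ra left and Il18rap joined the pairing that follows neither marker. With the 70th percentile filter Il1rl2 and Csf2rb were no longer measured. No receptor gene past 2-fold changed direction. With the median over probe sets, Il4ra fell short of 2-fold between CD25+ and CD25- Foxp3- cells (log2 difference -0.75), as did Il15ra between CD25lo Foxp3+ and CD25- Foxp3- cells (0.74) and Il18rap between CD25hi Foxp3+ and CD25- Foxp3- cells (-0.86), while Il7r passed it for both Foxp3+ arrays against CD25- Foxp3- cells (-1.02 and -1.14). With quantile normalization Il18r1 fell short in CD25+ against CD25- Foxp3- cells (0.94), which left 4 genes at least 2-fold above every other array, and Il17ra passed (-1.04). Without the filter the median of the receptor genes was 0.0 for CD25+ against CD25- Foxp3- cells, and 0.03 and 0.12 for CD25hi and CD25lo Foxp3+ against CD25+ Foxp3- cells, since genes at the floor were added, and Csf2ra joined the genes lower in CD25lo Foxp3+ than in CD25+ Foxp3- cells. With the 70th percentile filter the median for CD25hi Foxp3+ against CD25- Foxp3- cells was 0.14, in place of -0.08, and that against CD25+ Foxp3- cells was 0.55, in place of 0.31. No paired analysis was possible because each group has 1 array and the labels carry no replicate number that is shared by more than 1 sample of a group. With 1 array a group, a difference cannot be told apart from the spread between arrays, and readings between 10.1 and 32.5 are near background.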
